A study of Mus musculus with 6 samples.

Results

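Alternative activation is the state that macrophages enter when interleukin 4 or interleukin 13 acts on them, and it is read from a small set of marker genes. Such markers make up 10 of the 52550 genes in the deposited table and were found by gene symbol: Arg1, Mrc1, Chil3, Retnla, Clec10a, Mgl2, Il4ra, Pparg, Ear2 and Tgm2. Each symbol matched 1 row of the table. They were chosen as known markers of this state. Levels came from 6 libraries of mRNA made from primary macrophages of C57BL/6 mice, grown from bone marrow for 7 days with macrophage colony-stimulating factor at 25 ng/ml. Of these, 3 libraries came from macrophages given culture medium of normal chondrocytes (C CM), and 3 from macrophages given culture medium of apoptotic chondrocytes (AC CM). Both groups therefore received conditioned medium, and no library came from macrophages without it or with added interleukin 4. The labels do not say how the chondrocytes were killed, how long the medium was left on, or whether a group's 3 samples were taken from different mice or dishes, so the spread behind the p-values may be technical.

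Interleukin 4 binds the receptor chain Il4ra, which pairs with the common gamma chain Il2rg or with Il13ra1, and Janus kinases on these chains then phosphorylate the transcription factor STAT6. STAT6 enters the nucleus and, together with factors such as Irf4, Klf4 and Pparg, switches on genes for arginine breakdown (Arg1), sugar-binding receptors (Mrc1, Clec10a, Mgl2), secreted chitinase-like and resistin-like proteins (Chil3, Retnla) and a protein-crosslinking enzyme (Tgm2). In resting macrophages some of these genes are already active, and others are nearly silent until interleukin 4 arrives.

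Library totals were 65630784 to 80105872 counts. Values are given as CPM, counts scaled to a common library size (TMM scaling). A mean is followed by its SD over the 3 libraries of a group. Differences are log2 fold changes of AC CM relative to C CM with a standard error (SE), tested with edgeR's quasi-likelihood test and adjusted by Benjamini-Hochberg over the 17863 genes that passed the filter on low counts. The macrophage genes Adgre1 (1943 to 2446 CPM), Csf1r (1944 to 3391 CPM) and Lyz2 (10360 to 12067 CPM) were abundant in all 6 libraries. Adgre1 and Lyz2 did not pass the test. Csf1r fell from 3317 ± 89.9 CPM in C CM to 2021 ± 84.0 CPM in AC CM (log2 fold change -0.72, adjusted p = 4.41e-05). Transcripts of neutrophil precursors and monocytes were present too, as described below. Liver transcripts stood out in AC CM replicates 2 and 3, as described beside Arg1, and values without that pair are given where they change a call.

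The set split. Of the 10 members 9 could be tested, 3 rose after AC CM (Arg1, Mrc1 and Pparg), 4 fell (Chil3, Clec10a, Mgl2 and Ear2), and Il4ra and Tgm2 did not pass the threshold of 0.05 on the adjusted p. Of all genes tested, 26.5% were called, 13.3% higher and 13.3% lower. The median log2 fold change was -0.08 over the 9 members and -0.0046 over all genes tested. In 7 of the 9 the values of the 2 groups did not overlap, against 44.7% of all genes tested. Dropping AC CM replicates 2 and 3 left 4 of the 9 called, all lower: Chil3, Clec10a, Mgl2 and Ear2. Of the 19329 genes tested in that fit 6.59% were called, 2.64% higher and 3.95% lower. The single AC CM library of that fit is assumed to vary as C CM libraries do.

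The promoters of the members that fell were read first, because they are the stretch in which shared control would be looked for. The RefSeq table for GRCm38.p6 held a window for 7 of the 10 members; Arg1, Clec10a and Tgm2 had none. Shown are the 250 bases before the start site of 3 members that fell, Chil3, Mgl2 and Ear2, and of Retnla, which had no reads at all. They are written 5′ to 3′ on the gene's own strand, and capitals mark matches, on either strand, to the letters TTCNNNNGAA (a palindromic STAT site with 4 bases in its middle, the spacing STAT6 prefers), TTCNNNGAA (the same with 3 bases), GAGGAAG (core of the site for PU.1, the macrophage lineage factor) or the TATA box, TATAAA.
Chil3 (chr3:106167565-106167814, minus strand): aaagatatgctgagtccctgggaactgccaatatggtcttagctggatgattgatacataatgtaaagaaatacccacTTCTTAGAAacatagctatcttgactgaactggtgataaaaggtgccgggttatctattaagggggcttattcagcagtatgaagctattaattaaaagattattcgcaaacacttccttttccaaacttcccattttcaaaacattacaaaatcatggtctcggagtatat
Mgl2 (chr11:70130107-70130356, plus strand): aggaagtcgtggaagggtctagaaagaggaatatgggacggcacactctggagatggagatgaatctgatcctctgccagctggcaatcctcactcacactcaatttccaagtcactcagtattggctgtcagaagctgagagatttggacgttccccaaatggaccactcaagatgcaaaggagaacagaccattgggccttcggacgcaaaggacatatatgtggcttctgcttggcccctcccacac
Ear2 (chr14:44102404-44102653, plus strand): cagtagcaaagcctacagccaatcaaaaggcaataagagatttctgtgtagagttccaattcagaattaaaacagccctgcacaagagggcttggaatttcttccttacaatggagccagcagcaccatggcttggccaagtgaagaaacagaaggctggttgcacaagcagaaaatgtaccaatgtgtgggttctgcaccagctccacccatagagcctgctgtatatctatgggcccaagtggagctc
Retnla (chr16:48842359-48842608, plus strand): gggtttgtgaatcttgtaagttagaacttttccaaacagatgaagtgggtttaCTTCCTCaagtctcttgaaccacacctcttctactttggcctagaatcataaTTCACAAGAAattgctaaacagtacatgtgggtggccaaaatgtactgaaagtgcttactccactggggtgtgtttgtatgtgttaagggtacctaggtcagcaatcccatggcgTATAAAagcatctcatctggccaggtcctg

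The letters TTCNNNNGAA were found in the Retnla window alone among the 7 members with a window, as TTCACAAGAA at 145 to 136 bases before the start. Of 32536 promoter windows of this length 5.89% held them. Chil3 held TTCNNNGAA, as TTCTTAGAA at 172 to 164 bases before the start, which 7.04% of the windows held. Retnla also held the PU.1 core, found in 10.7% of the windows, and a TATA box, found in 12.3%. Neither was particular to Retnla among the 7 members. Mrc1 held the PU.1 core at 168 to 162 and at 36 to 30 bases before the start. Pparg held a TATA box at 29 to 24 bases before its listed start site 2. The Mgl2 and Ear2 windows held none of the 4 motifs. A match describes these letters only, and distal enhancers were not examined.

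**Figure D1:**
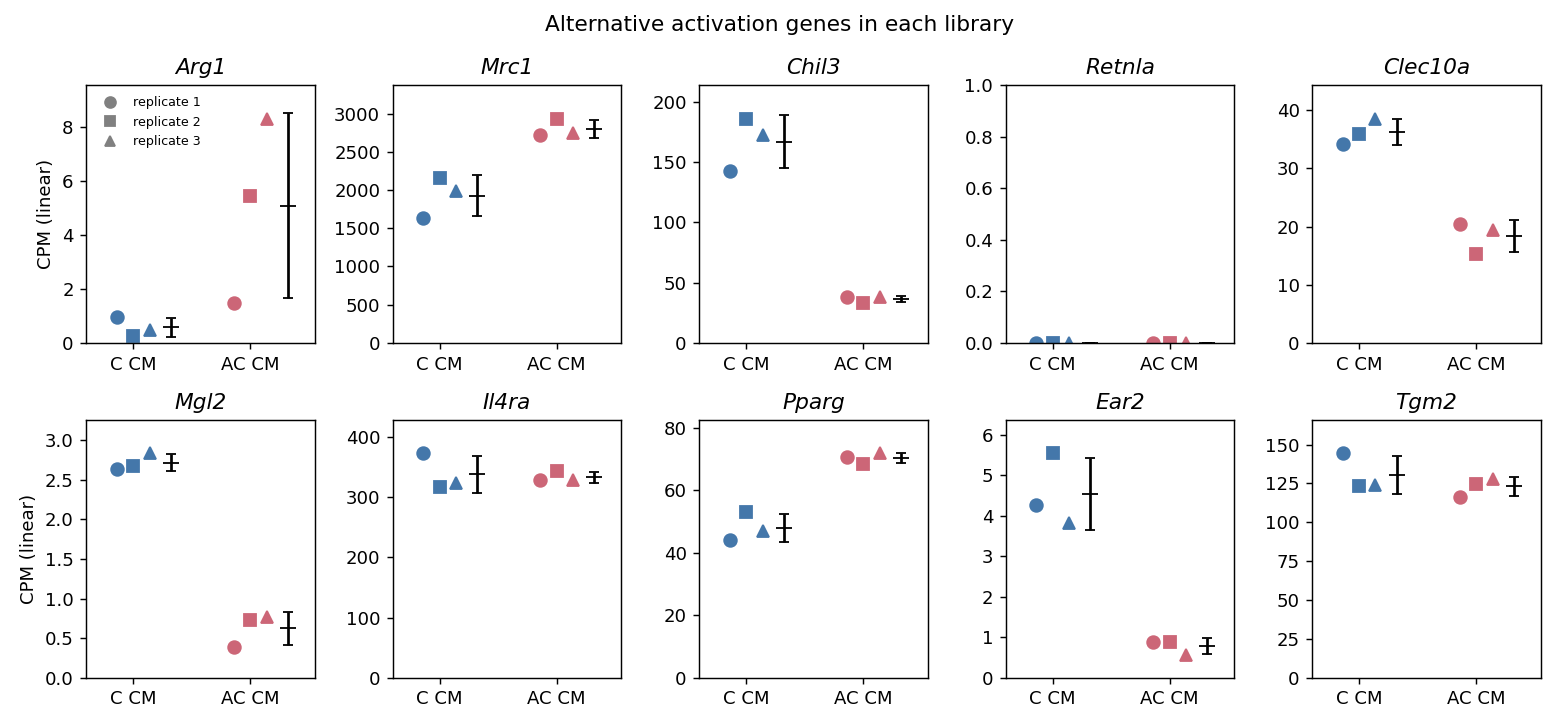
CPM (linear axes from 0, a separate scale per gene) of the 10 genes in each library, with C CM in blue, AC CM in red, a marker shape per replicate, and a black bar for mean ± SD of 3 libraries. Chil3, Clec10a, Mgl2 and Ear2 were lower in every AC CM library than in any C CM library, Mrc1, Pparg and Arg1 were higher, Il4ra and Tgm2 overlapped, and Retnla was at 0.

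The receptor chain Il4ra (ENSMUSG00000030748.9, chromosome 7, 125552120 to 125579474, plus strand) was well expressed and did not pass the test. In order of replicate number it stood at 373, 317 and 323 CPM after C CM and at 328, 344 and 328 CPM after AC CM. The groups overlapped, with the highest value in C CM replicate 1. Its log2 fold change was -0.02 (SE 0.07, adjusted p = 0.883), with a 95% interval of -0.19 to 0.15. The antisense gene Gm44876, which overlaps Il4ra, had 40 to 107 counts per library, against 21651 to 26582 counts of Il4ra.

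Pparg (ENSMUSG00000000440.12, chromosome 6, 115360951 to 115490399, plus strand) encodes a lipid-sensing nuclear receptor that acts with STAT6 in alternative activation and drives lipid uptake genes. It was at 44.0, 53.0 and 47.0 CPM in C CM and at 70.5, 68.5 and 71.8 CPM in AC CM. All AC CM libraries lay above all C CM libraries. The rise was 1.46-fold (48.0 ± 4.56 to 70.3 ± 1.67 CPM, log2 fold change 0.55, SE 0.08, adjusted p = 0.00154). The log2 fold change was also 0.55 without AC CM replicates 2 and 3, at an adjusted p = 0.0728.

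Arg1 (ENSMUSG00000019987.9, chromosome 10, 24915221 to 24927484, minus strand) encodes arginase, which splits arginine into ornithine and urea and is both the best known marker of this state and an enzyme of the liver's urea cycle. By replicate number, its counts were 64, 18 and 33 after C CM and 105, 420 and 663 after AC CM. In CPM these were 0.976, 0.263 and 0.493 against 1.49, 5.43 and 8.32. AC CM replicate 1 lay close to C CM replicate 1, and the other AC CM libraries lay well above both. The rise was 8.80-fold between the means, or 3.14 on the log2 scale (SE 0.77, adjusted p = 0.0296), with a 95% interval of 1.26 to 5.02. Leaving out any C CM library ended the call, with adjusted p = 0.0547, 0.0797 and 0.110 for replicates 1, 2 and 3 and log2 fold changes of 3.75, 2.79 and 3.03. Leaving out AC CM replicate 2 ended it as well (3.09, adjusted p = 0.0731). Dropping AC CM replicate 1 kept it called at 3.57 (adjusted p = 0.00241), as did dropping replicate 3 of that group, at 2.58 (adjusted p = 0.0424). Leaving out AC CM replicates 2 and 3 together gave 1.36 (adjusted p = 0.297), and the fit with the replicate number as a block gave 3.04 (adjusted p = 0.155). The authors' deposited table gives Arg1 a log2 fold change of 3.15 at an adjusted p of 1.79e-07.

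Liver transcripts were highest in the libraries in which Arg1 was highest. Alb, which encodes serum albumin, was at 30.1, 1.32 and 0.254 CPM after C CM and at 38.1, 469 and 971 CPM after AC CM, again by replicate number. C CM replicate 1 had the most Alb and the most Arg1 of its group, and AC CM replicate 3 had the most of both in all. C CM replicate 3 had more Arg1 than C CM replicate 2 (33 against 18 counts) and less Alb (17 against 90 counts). These counts are low. Alb counts per Arg1 count were 30.8, 5 and 0.515 after C CM and 25.6, 86.4 and 117 after AC CM. The hepatocyte list held 26 genes, of which Trf, the transferrin gene, is better left aside here because it gave most of the list's sum in C CM (515 to 552 CPM) and fell. The other 25 genes summed to 58.8, 5.32 and 3.72 CPM after C CM and to 66.7, 740 and 1687 CPM after AC CM. Of these 25, 24 had their highest values in AC CM replicates 2 and 3, and 16 and 15 were at 0 in C CM replicates 2 and 3. C CM replicate 1 and AC CM replicate 1 had liver sums of 58.8 and 66.7 CPM and Arg1 at 64 and 105 counts. Of 24 hepatocyte genes tested, Tat and Cyp3a11 rose, Trf fell and 21 did not pass, with a median log2 fold change of 4.76. The part of liver RNA in the Arg1 result was not tested.

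The 5 genes most like Arg1 were found by the root mean square distance between log2 CPM profiles over the 6 libraries, each centred on its own mean, among 13963 genes with a mean of at least 1 CPM. They were Gnmt (distance 0.42), Itih2 (0.54), Serpina6 (0.55), Fbp1 (0.57) and Tat (0.59), all known for high expression in liver. Gnmt, which methylates glycine, was at 0.381, 0.102 and 0.0448 CPM in C CM and at 0.582, 3.23 and 3.85 CPM in AC CM. Tat, a tyrosine-degrading enzyme and a member of the hepatocyte list, was at 0.183, 0 and 0 CPM in C CM and at 0.639, 2.38 and 4.45 CPM in AC CM. Both were highest in AC CM replicate 3 and, within C CM, in replicate 1, as Alb was.

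**Figure D2:**
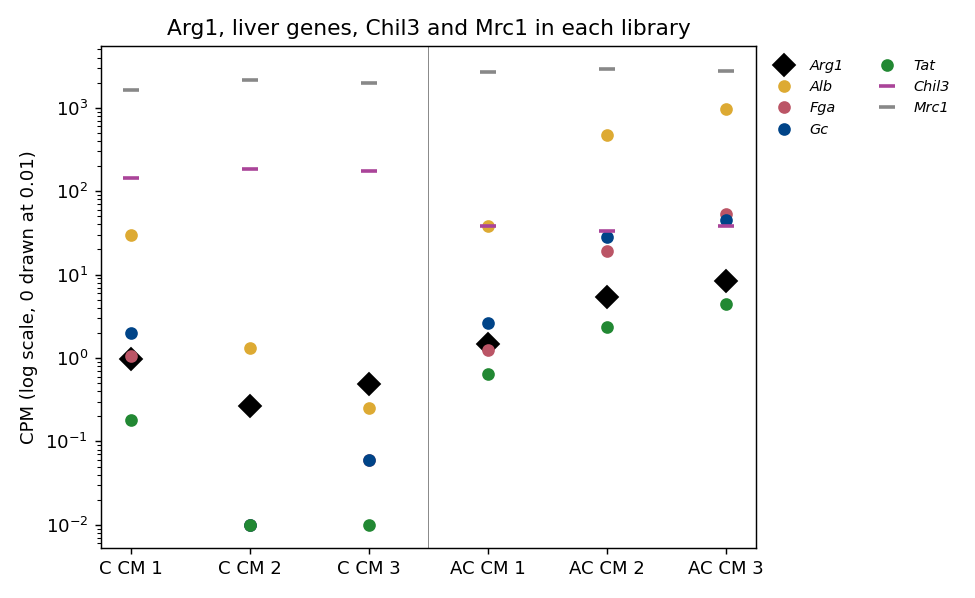
CPM on a log axis (0 drawn at 0.01) in each of the 6 libraries for Arg1 (black diamonds), the liver genes Alb, Fga, Gc and Tat (circles), and Chil3 and Mrc1 (dashes). Arg1 and the liver genes were highest in AC CM replicates 2 and 3, while Chil3 (33.4 to 38.1 CPM) and Mrc1 (2719 to 2935 CPM) were nearly level across the 3 AC CM libraries.

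Tgm2 (ENSMUSG00000037820.15, chromosome 2, 158116402 to 158146436, minus strand) encodes tissue transglutaminase, which crosslinks proteins and helps macrophages take up dying cells. It was at 144, 123 and 124 CPM in C CM and at 116, 125 and 128 CPM in AC CM, with overlapping groups. Its log2 fold change was -0.08 (SE 0.08, adjusted p = 0.500), with a 95% interval of -0.27 to 0.10. Of the 50-base windows of its transcripts 18.7% also occur in Gm20412 or Rprd1b, which overlap Tgm2 on the opposite strand. Gm20412 had 1234 to 1626 counts per library, and without a stated strand setting its reads cannot be told apart from those of Tgm2 where the genes overlap.

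Of the sugar-binding receptors, the mannose receptor rose and the galactose-type lectins fell. Mrc1 (ENSMUSG00000026712.3, chromosome 2, 14229392 to 14332057, plus strand) encodes the mannose receptor, CD206, which takes up glycoproteins. It was the most abundant member, at 1636, 2160 and 1984 CPM in C CM and 2719, 2935 and 2741 CPM in AC CM. All AC CM libraries were above all C CM libraries, and the C CM libraries spread more widely. The rise was 1.45-fold (log2 fold change 0.54, SE 0.10, adjusted p = 0.00349), and dropping AC CM replicates 2 and 3 gave 0.49 at an adjusted p = 0.118.

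Clec10a and Mgl2 encode the macrophage galactose-type lectins 1 and 2, paralogous receptors for galactose and N-acetylgalactosamine that also mark type 2 conventional dendritic cells. They lie side by side on the plus strand of chromosome 11, Mgl2 at 70130329 to 70137550 (ENSMUSG00000040950.13) and Clec10a at 70156197 to 70170834 (ENSMUSG00000000318.16), with 18646 bases and no other gene of the table between them. Clec10a was at 34.3, 35.9 and 38.6 CPM in C CM and at 20.4, 15.3 and 19.4 CPM in AC CM. It fell 1.97-fold (log2 fold change -0.98, SE 0.12, adjusted p = 4.74e-04). Mgl2 was far less abundant, with 173, 183 and 190 counts in C CM and 27, 56 and 61 in AC CM, or 2.64, 2.68 and 2.84 CPM against 0.383, 0.724 and 0.765. It fell 4.35-fold (log2 fold change -2.12, SE 0.30, adjusted p = 0.00109). The log2 fold change was -2.82 when only AC CM replicate 1 stood for its group (adjusted p = 0.00665). In both genes every AC CM library was below every C CM library. The pair shared 270 of the 50-base windows of their transcripts. In all, 13.1% of the Mgl2 windows and 9.02% of the Clec10a windows occur in some other gene. Reads from shared windows may have been counted for the other lectin or dropped. Because Clec10a had 1186 to 2583 counts per library and Mgl2 27 to 190, this matters more for Mgl2. How much of the Mgl2 count and of its fall came from Clec10a reads was not tested.

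Most genes of the dendritic cell list fell too, as did most of the neutrophil (11 of 13) and monocyte (7 of 11) lists described below. Of 12 dendritic cell markers 11 were tested, 9 fell, 0 rose and 2 did not pass, with a median log2 fold change of -1.95; against AC CM replicate 1 alone 8 of 12 fell. Their summed level was 404 to 432 CPM in C CM and 255 to 290 CPM in AC CM, of which Irf8 gave most. The markers differed widely in abundance. Flt3 had 25 to 98 counts in C CM and 0 to 18 in AC CM. In the same order Clec9a had 50 to 72 and 5 to 18, and Cd209a 8 to 25 and 0 to 4. Others had more: Zbtb46 153 to 200 and 58 to 104, and Cd24a 598 to 821 and 159 to 176. Itgax had 2741 to 3911 counts in C CM and 928 to 1017 in AC CM. Fewer cells of a type and less RNA per cell cannot be told apart in these bulk samples. The part of dendritic cells in the fall of Clec10a and Mgl2 was not tested.

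Of the secreted proteins, Chil3 and Ear2 fell and Retnla was not detected. Chil3 (ENSMUSG00000040809.10, chromosome 3, 106147554 to 106167564, minus strand) encodes Ym1, a chitinase-like lectin. It was at 143, 186 and 172 CPM in C CM and 37.8, 33.4 and 38.1 CPM in AC CM, with the AC CM libraries close together. It fell 4.58-fold (167 ± 22.2 to 36.4 ± 2.59 CPM, log2 fold change -2.20, SE 0.11, adjusted p = 3.60e-06). Of its 50-base windows 26.9% occur in Chil4 or the pseudogene Gm6522. Chil4 had 0 counts in every library. Chil3 is also a gene of neutrophil precursors. Of 13 neutrophil and granulocyte precursor genes, all tested, 11 fell, 0 rose and 2 did not pass, with a median log2 fold change of -2.16, and the count was also 11 against AC CM replicate 1 alone. Their summed level was 923 to 1070 CPM in C CM and 203 to 217 CPM in AC CM, and the granule protein gene Ngp alone was at 196 to 226 and 34.1 to 37.0 CPM. Their part in the Chil3 result was not tested.

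Ear2 (ENSMUSG00000072596.4, chromosome 14, 44102654 to 44103534, plus strand) encodes an eosinophil-associated ribonuclease that attracts dendritic cells. It had 279, 379 and 256 counts in C CM and 62, 69 and 44 in AC CM, or 4.26, 5.54 and 3.82 CPM against 0.880, 0.892 and 0.552. Groups did not overlap, and the fall was 5.86-fold (log2 fold change -2.55, SE 0.27, adjusted p = 1.97e-04). Of its 50-base windows 41.5% occur in other genes, chiefly Ear10 and Ear1. Ear1, Ear6, Ear10 and Ear14 had between 0 and 4 counts in each library. How the authors' counting treated reads shared within the family is not given in the sources used here, so the Ear2 values are uncertain to that extent. Eosinophil granule genes were nearly absent: Epx had 0 counts in every library, Prg2 had 0 to 35 and Prg3 0 to 9. Of 9 eosinophil genes 4 were tested, Siglecf and Gata1 fell, Ccr3 rose and Prg2 did not pass. The list summed to 14.5 to 23.0 CPM in C CM and 23.0 to 24.1 CPM in AC CM. Ccr3 gave most of it (11.8 to 18.2 and 22.3 to 23.7 CPM). Of 11 monocyte markers, described below, 7 fell and 0 rose. The part of eosinophils or monocytes in the Ear2 result was not tested.

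Retnla (ENSMUSG00000061100.3, chromosome 16, 48842552 to 48844461, plus strand) encodes RELM-alpha, also called FIZZ1, a secreted resistin-like protein strongly induced by interleukin 4. It had 0 counts in all 6 libraries, which allows up to 3 counts, or 0.0376 to 0.0458 CPM, in a library, counting error only. None of its 50-base windows occurs in another gene's transcripts. The resistin-like genes Retn and Retnlb were at 0 as well, and Retnlg had 16 to 41 counts per library (log2 fold change -0.17, SE 0.52, adjusted p = 0.848).

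**Figure D3:**
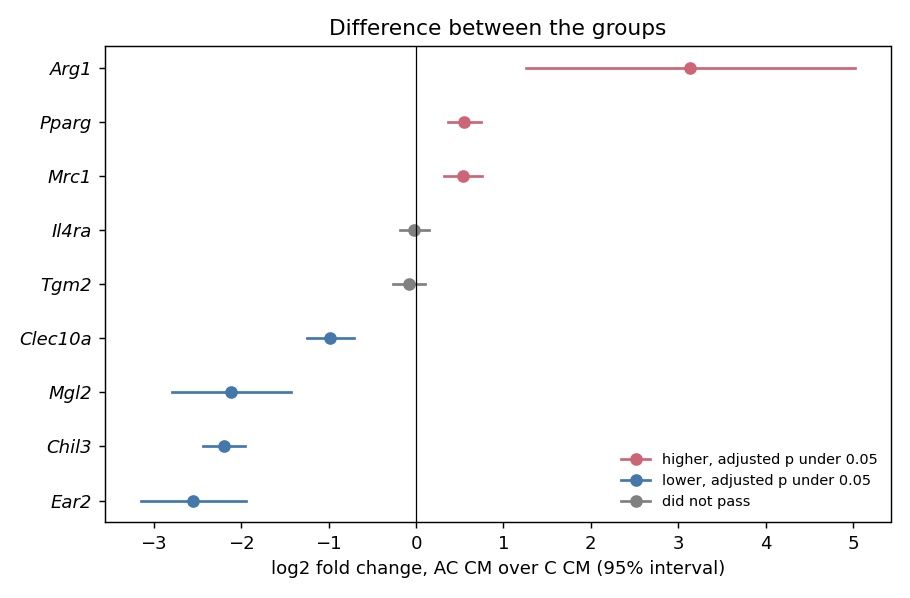
Log2 fold change of AC CM over C CM for the 9 genes that could be tested (points) with 95% intervals from the edgeR fit (lines), red for higher, blue for lower and grey for genes that did not pass. The interval of Arg1, 1.26 to 5.02, was the widest, and those of Il4ra and Tgm2 crossed 0.

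Levels of different genes can be set side by side only per length, here as CPM per kilobase of annotated exon. After C CM the order was Mrc1 (257 to 339 CPM per kilobase), Chil3 (87.3 to 114), Il4ra (52.9 to 62.2), Tgm2 (26.7 to 31.3), Pparg (14.9 to 17.9), Clec10a (11.8 to 13.3), Ear2 (5.31 to 7.71), Mgl2 (1.26 to 1.35) and Arg1 (0.118 to 0.438). No neighbours in that order overlapped between libraries. After AC CM Chil3 stood at 20.5 to 23.3 CPM per kilobase, below Il4ra (54.7 to 57.3) and Tgm2 (25.3 to 27.8), and it overlapped Pparg (23.2 to 24.3). Arg1 (0.669 to 3.73 CPM per kilobase) overlapped Ear2 (0.768 to 1.24) after AC CM, whereas it was the lowest detected member after C CM.

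Genes around the members were taken from lists that were chosen with earlier results of these data known. They are described by counts and medians beside the all-gene median. In the main fit 26.5% of all genes tested were called, 13.3% higher and 13.3% lower. Every list count of that fit, here and above, is to be read beside these shares. Of 17 genes of interleukin 4 and 13 signalling 15 were tested, 5 fell, 0 rose and 10 did not pass, with a median log2 fold change of -0.25. The number called was thus not far above the share of all genes called in either direction (26.5%). All 5 were lower, and 5 of 15 is above the 13.3% of all genes called lower. The receptor partners Il2rg (132 ± 7.45 to 111 ± 2.64 CPM, -0.25) and Il13ra1 (28.6 ± 2.53 to 21.8 ± 1.98 CPM, -0.40) fell, each by much less than the lectins. Tyk2, a Janus kinase, fell by 0.39 on the log2 scale. Among brakes on the pathway, the phosphatase gene Ptpn1 and the suppressor gene Socs3 changed by -0.50 (SE 0.06) and -0.87 (SE 0.12). Stat6, at 272 ± 7.82 and 307 ± 3.12 CPM, did not pass (adjusted p = 0.0533, for a change of 0.17 with an SE of 0.06 on the log2 scale). As for the ligands, Il4 had 48 to 114 counts per library and did not pass (adjusted p = 0.215), and Il13 had 8 counts in C CM replicate 2 and 0 elsewhere. Against AC CM replicate 1 alone, 0 of the 15 were called.

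Among 15 transcription factors and co-regulators, all tested, 3 rose, 4 fell and 8 did not pass (median log2 fold change 0.09). Irf4, a STAT6 target and partner, fell from 8.93 ± 0.589 to 3.60 ± 0.469 CPM (log2 fold change -1.31, SE 0.15, adjusted p = 3.53e-04). Ppard, the sister receptor of Pparg, fell from 35.2 ± 3.60 to 17.9 ± 0.381 CPM (-0.97, SE 0.10) while Pparg rose. Rxra, the partner of both receptors in binding DNA, changed by -0.28 and the histone demethylase gene Kdm6b by -0.43. Myc rose by 0.63, the coactivator gene Ppargc1b by 0.68 and Maf by 0.19. Klf4 did not pass, at 10.2 ± 1.48 and 9.50 ± 1.61 CPM. Against AC CM replicate 1 alone, 0 rose and 3 fell: Irf4, Ppard and Egr2.

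A further list, of genes named as induced by interleukin 4, had 24 genes that the table holds. Of these 18 were tested, 2 rose, 8 fell and 8 did not pass (median log2 fold change -0.33). No library had added interleukin 4, so the response of the listed genes to it was not measured. The elastase gene Mmp12 fell from 226 ± 45.8 to 59.7 ± 6.91 CPM (-1.92, SE 0.15). On the log2 scale the change was -1.78 for Itgb3, an integrin gene, and -1.59 for the kinase gene Matk. The chemokine genes Ccl24 and Ccl22 were low throughout: Ccl24 had 54 to 114 counts in C CM and 4 to 14 in AC CM, and Ccl22 had 60 to 113 and 0 to 12. Both fell (adjusted p = 0.00197 and 0.00733). The haemoglobin scavenger receptor gene Cd163 fell from 34.1 ± 4.53 to 20.7 ± 2.51 CPM. Cd200r1, an inhibitory receptor, rose from 118 ± 12.0 to 176 ± 3.60 CPM (0.58, SE 0.08, adjusted p = 0.00101), and Plk2 rose by 0.48. When AC CM replicate 1 stood alone for its group, 0 rose and 6 fell.

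Genes that Pparg can switch on moved in both directions. Of 16 listed, 15 were tested, 4 rose, 6 fell and 5 did not pass (median log2 fold change -0.17). The fatty acid receptor gene Cd36 rose by 1.39 on the log2 scale to 2936 ± 33.8 CPM, the lipid droplet gene Plin2 rose by 0.78 and Fabp5 by 0.29. Abcg1, a cholesterol exporter, changed by -1.99, Klf9 by -0.73, Angptl4 by -0.69 and Cpt1a by -0.26. In the fit with AC CM replicate 1 alone, Cd36 and Plin2 were called higher and 4 genes lower.

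Arginine and polyamine genes were mixed. Of 20 tested, 5 rose, 5 fell and 10 did not pass (median log2 fold change 0.02). Arg2, the mitochondrial arginase, fell from 3.22 ± 0.730 to 0.553 ± 0.281 CPM (-2.53, SE 0.40, adjusted p = 0.00188), opposite in sign to Arg1. Nos2, which competes for arginine and marks classical activation, was low at 54 to 62 counts in C CM and 17 to 24 in AC CM (-1.60, SE 0.37, adjusted p = 0.0127). The creatine pathway enzyme gene Gatm rose from 156 ± 8.22 to 339 ± 9.93 CPM, the arginine transporter gene Slc7a1 by 0.60 and the spermine synthase gene Sms by 0.88. The polyamine breakdown gene Paox rose by 0.37, whereas Sat1 and Oaz2 changed by -0.52 and -0.66. In the fit with AC CM replicate 1 alone, Slc7a1, Sms and Gatm were called higher and Arg2 lower.

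Among 26 paralogues of the members 13 were tested, 1 rose, 6 fell and 6 did not pass (median log2 fold change -0.50). Chil1, a chitinase-like relative of Chil3, fell from 7.91 ± 1.01 to 1.61 ± 0.602 CPM (-2.30, SE 0.28, adjusted p = 4.48e-04). F13a1, the transglutaminase relative of Tgm2 and a monocyte marker, fell from 171 ± 32.6 to 54.4 ± 3.06 CPM. Asgr1, the hepatocyte lectin related to Clec10a, had 0, 0 and 5 counts in C CM and 12, 48 and 58 in AC CM. Asgr2, also on the list, went the other way, with 57, 44 and 57 counts in C CM and 0, 10 and 39 in AC CM, and did not pass. In the fit with AC CM replicate 1 alone, 14 were tested, 0 rose and 5 fell. Of 11 monocyte markers, all tested, 7 fell, 0 rose and 4 did not pass, and the list summed to 726 to 956 CPM in C CM and 358 to 392 CPM in AC CM. Of 12 macrophage markers 4 fell, 0 rose and 8 did not pass, with sums of 25322 to 26725 and 22762 to 23616 CPM. Of 10 chondrocyte markers 7 were tested, Col11a1 rose and 6 did not pass, with sums of 72.9 to 85.2 and 110 to 112 CPM. The part of these cell types in the paralogue results was not tested.

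**Figure D4:**
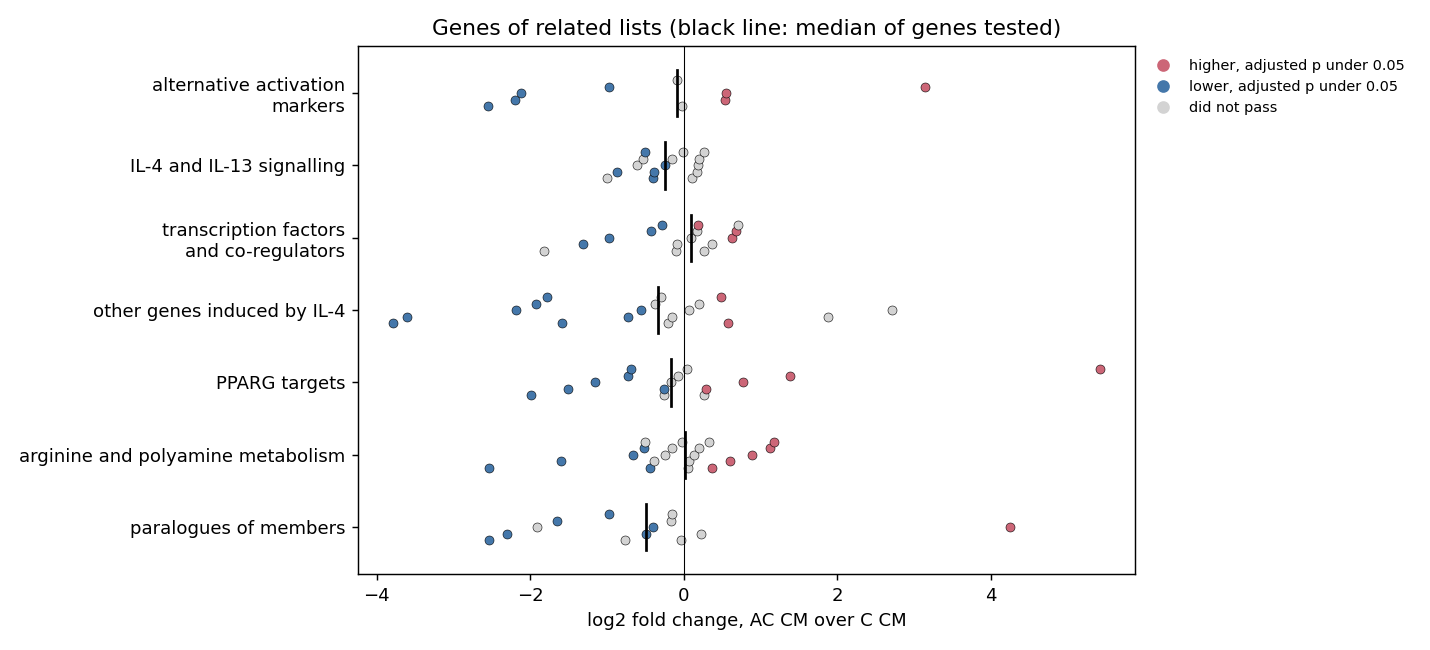
Log2 fold change of AC CM over C CM (x axis) for each tested gene of the 10 markers and of 6 related lists (rows), red for higher, blue for lower and grey for genes that did not pass, with a black line at each list's median. The medians lay between -0.50 for the paralogues and 0.09 for the transcription factors, and every list but interleukin 4 and 13 signalling held genes called in both directions.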

How the data were processed

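The submitters deposited 1 table with 52550 genes. Its counts per gene were deposited by the authors as whole numbers without normalization. The normalized signal columns, as deposited, equal the counts divided by a constant per library and were not tested. The deposited log2 fold changes and p-values are the authors' own comparison and were only read. The submitters' processing notes name HISAT2 2.1.0, fastp 0.17.1, R 3.4.3 and DESeq2 1.18.1 without their roles. For the counter, its strand setting and the genome build, nothing is given in the sources used here. Gene coordinates are the table's, 95.2% of them identical to GENCODE M21 (GRCm38), whose exons gave lengths and 50-base windows. Low counts favour multiples of 4 (each library has 394 to 446 genes at 3 counts and 696 to 814 at 4), so totals may overstate independent fragments.

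Members, lists and tests were chosen with earlier results of these data known. Counts were filtered with filterByExpr, TMM-scaled and fitted in edgeR 4.0.16 (R 4.3.3) with its robust quasi-likelihood method and group as the only term, after the procedure was tested on simulated data. The Arg1 distances used log2(CPM + 0.1). Alternatives were DESeq2 1.42.0, limma 3.58.1 voom, other scalings and filters, counts divided by 4, the 20 most counted genes left out, a replicate block, each library left out, and AC CM replicates 2 and 3 left out. Genes named are the members, up to 4 per list and direction with the smallest p, fixed genes of the pathway, the genes nearest to Arg1, and marker genes. Ccl22, Cd163, Egr2, Asgr2 and the genes that overlap a member or share its sequence were named after their values were seen. Leaving out Trf from the liver sum was also decided then. One gene of the lists that the rule would name is not reported here. Figures used matplotlib 3.10.9.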

Additional observations from a re-analysis of the deposited data

How the results depend on the processing

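In all, 17 alternatives were run. Chil3, Clec10a, Mgl2 and Ear2 were called lower, and Il4ra and Tgm2 were not called, in all 17. Ranges were -2.30 to -2.11 for Chil3, -1.06 to -0.83 for Clec10a, -2.82 to -1.87 for Mgl2 and -2.66 to -2.35 for Ear2. Mrc1 (0.44 to 0.63) and Pparg (0.49 to 0.63) lost their call only with AC CM replicates 2 and 3 left out. That setting, with fewer samples, called 4 members, 22 genes of the related lists (46 in the main fit) and 1274 of all genes (4741 in the main fit). Arg1 kept its call in 9 of 17, with adjusted p from 1.38e-07 (DESeq2) to 0.297; it was 0.0550 with no filter on low counts and 0.133 by limma-voom. Leaving out each library in turn called 6 or 7 members, 36 to 47 list genes and 3158 to 5023 of all genes, of which 3158, without AC CM replicate 3, was more than 1.5 times below the main count. The cause was not tested. The labels do not say whether the replicate numbers pair the samples. Deviations from the group means correlated at -0.112, -0.018 and -0.005 for numbers 1, 2 and 3. Between unlike numbers the correlations were -0.061 to 0.073. Such values, from 3 libraries per group, cannot decide whether samples were prepared in pairs. The fit with the replicate number as a block called 6 members and 44 list genes. Depth limits Arg1, Mgl2 and Ear2 most, which had as few as 18, 27 and 44 counts in a library.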
